A study of Mus musculus with 8 samples.

Results

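The genes described here are 40 genes of monocytes and macrophages, chosen by name from a table of 44422 genes measured by RNA-seq in the inguinal white adipose tissue (iWAT) and the brown adipose tissue (BAT) of mice. All 40 were found, 39 under the symbol used here and Adgre1 by its identifier, since the table lists it under the older symbol Emr1. They fall into 8 classes: 9 resident tissue macrophage genes, 2 lymph node sinus macrophage genes (Marco and Siglec1), 5 lipid-associated macrophage genes, 9 genes common to macrophages (pan-macrophage), 3 monocyte genes, 6 receptors for sensing and clearance, 3 Fc receptors and 3 genes of alternative activation. All animals were 10-week-old male C57BL/6 mice kept at 22 °C on normal chow, and all carried H1.2 flox/flox alleles. Mice without Cre served as WT, and H1.2AKO mice also carried adiponectin-Cre, whose promoter drives the deletion of the linker histone gene Hist1h1c (H1.2) in adipocytes. Macrophages are not among the cells in which this promoter is meant to act. Each of the 4 groups (iWAT WT, iWAT H1.2AKO, BAT WT, BAT H1.2AKO) was represented by 2 libraries, and each library was a pool of RNA from 3 mice according to the series' design notes. The study's methods give a smaller number of mice per pool.

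Macrophages of fat pads come from embryonic precursors and from blood monocytes, live on signals through the CSF1 receptor, and depend on the transcription factor PU.1. Resident macrophages that line vessels carry scavenger and lectin receptors such as CD163, the mannose receptor and TIM-4, whereas lipid-associated macrophages gather around stressed, lipid-laden adipocytes and carry TREM2, CD9 and galectin-3. Macrophages of the subcapsular and medullary sinuses of lymph nodes carry MARCO and sialoadhesin (Siglec1), and the inguinal fat pad of the mouse encloses a lymph node. The sources used here do not say whether that node was removed at dissection. Levels are given in FPKM, read counts scaled to gene length and library size, and all log2 differences are on the scale log2(FPKM + 0.5). In these bulk samples fewer macrophages and less RNA per macrophage cannot be told apart.

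Promoters of 4 members are shown because 3 of them belong to the most abundant or best known macrophage genes and hold the 7-base core of PU.1 sites, and because the fourth, Marco, is the member on which the comparisons below turn and holds none. Each stretch runs from 250 bases before to 50 bases after the gene start, 5′ to 3′ on the gene's own strand (RefSeq, GRCm38.p6). Capitals mark the core AGGAAGT, read here on the opposite strand in all 3 cases.
Retnla (chr16:48842359-48842658, plus strand): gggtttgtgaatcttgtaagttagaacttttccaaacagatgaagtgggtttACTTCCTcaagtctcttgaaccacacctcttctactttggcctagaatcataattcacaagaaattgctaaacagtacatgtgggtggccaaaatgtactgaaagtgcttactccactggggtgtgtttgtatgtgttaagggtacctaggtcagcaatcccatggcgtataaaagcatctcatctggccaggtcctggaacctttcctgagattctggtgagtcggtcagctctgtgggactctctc
Lyz2 (chr10:117282223-117282522, minus strand): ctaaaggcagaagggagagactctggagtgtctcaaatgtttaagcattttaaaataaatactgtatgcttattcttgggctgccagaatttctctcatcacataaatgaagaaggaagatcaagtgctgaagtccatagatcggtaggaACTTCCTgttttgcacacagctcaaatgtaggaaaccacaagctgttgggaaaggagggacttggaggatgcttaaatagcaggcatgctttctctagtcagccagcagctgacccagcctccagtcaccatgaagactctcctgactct
Mrc1 (chr2:14229164-14229463, plus strand): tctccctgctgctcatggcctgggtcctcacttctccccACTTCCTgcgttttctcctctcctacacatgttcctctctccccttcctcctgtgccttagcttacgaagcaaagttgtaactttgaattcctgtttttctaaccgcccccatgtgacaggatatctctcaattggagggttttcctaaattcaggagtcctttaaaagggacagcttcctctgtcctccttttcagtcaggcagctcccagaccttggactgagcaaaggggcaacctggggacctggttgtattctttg
Marco (chr1:120504975-120505274, minus strand): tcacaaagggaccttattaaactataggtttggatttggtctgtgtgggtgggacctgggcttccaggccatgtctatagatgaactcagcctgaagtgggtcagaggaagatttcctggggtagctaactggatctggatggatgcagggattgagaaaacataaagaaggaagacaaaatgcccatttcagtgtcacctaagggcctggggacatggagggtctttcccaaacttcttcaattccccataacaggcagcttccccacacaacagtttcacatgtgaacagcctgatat

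Of the 40 members, 30 matched an entry in the promoter table, with 33 promoters between them. The PU.1 core AGGAAGT was present on either strand in 10 of 33 member promoters (30.3%) and in 9.35% of all 32851 promoters of the same length. The 9 genes that held it were Chil3, Ctss, Fcgr1, Folr2, Ly6c2, Lyz2, Mgl2, Mrc1 and Retnla. The MAF half-site TGCTGA was present in 11 of 33 (33.3%, against 19.5% of all promoters), and the E-box CACGTG in 0 of 33 (7.15% of all promoters). None of the 3 motifs contains another, and a match is a description of the sequence only.

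The libraries held 16118634 to 17480325 reads on listed genes. The targeted gene Hist1h1c was at 23.7 and 24.2 FPKM in the iWAT WT libraries and at 2.26 and 1.73 in iWAT H1.2AKO, whereas the BAT libraries held 36.8 and 43.3 FPKM (WT) and 0.177 and 1.97 FPKM (H1.2AKO). The H1.2AKO libraries were therefore below the WT libraries in both tissues, as labelled (log2 difference -3.30, adjusted p = 0.366 in iWAT; -4.97, adjusted p = 0.0717 in BAT). Ucp1, the uncoupling protein of brown adipocytes, was at 0.547 to 3.41 FPKM in iWAT and 2490 to 2856 in BAT. Skeletal muscle genes differed widely between the replicates of iWAT WT and of BAT H1.2AKO. In BAT both H1.2AKO libraries were below both WT libraries for all 8 genes listed. The sum of 8 of them was 126.8 FPKM in iWAT WT replicate 1 and 71.5 in BAT H1.2AKO replicate 1, against 1175 to 3281 in the other 6 libraries.

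Some of the macrophage genes were abundant in iWAT, although bulk samples do not show which cells made the RNA. Retnla, which encodes the secreted protein RELMα of alternatively activated macrophages, was the highest member there, at 718.0 ± 71.3 FPKM (SD, n = 4 libraries of both genotypes), followed by Lyz2, which encodes lysozyme, at 547.4 ± 58.7. These 2 genes made up 35.2% and 26.8% of the summed FPKM of all 40 members in iWAT. In BAT their order was turned, with Lyz2 at 105.4 ± 22.8 and Retnla at 68.1 ± 19.3 FPKM. In iWAT the 4 Retnla values (614.2 to 775.3) lay above the 4 Lyz2 values (470.8 to 609.9), whereas in BAT the ranges of Lyz2 (80.6 to 133.5) and Retnla (47.5 to 90.2) overlapped. The next 3 places in iWAT were held by Ctss, which encodes the lysosomal protease cathepsin S (99.5 FPKM), Folr2 (81.4) and Tyrobp, the signalling adaptor of TREM2 and related receptors (72.9). The lowest member in iWAT was Cx3cr1, the fractalkine receptor, at 0.333 FPKM, and the lowest in BAT was Marco. Unlike Retnla, the other 2 genes of alternative activation were scarce in iWAT, Arg1 at 0.616 and Chil3 at 1.04 FPKM.

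**Figure D1:**
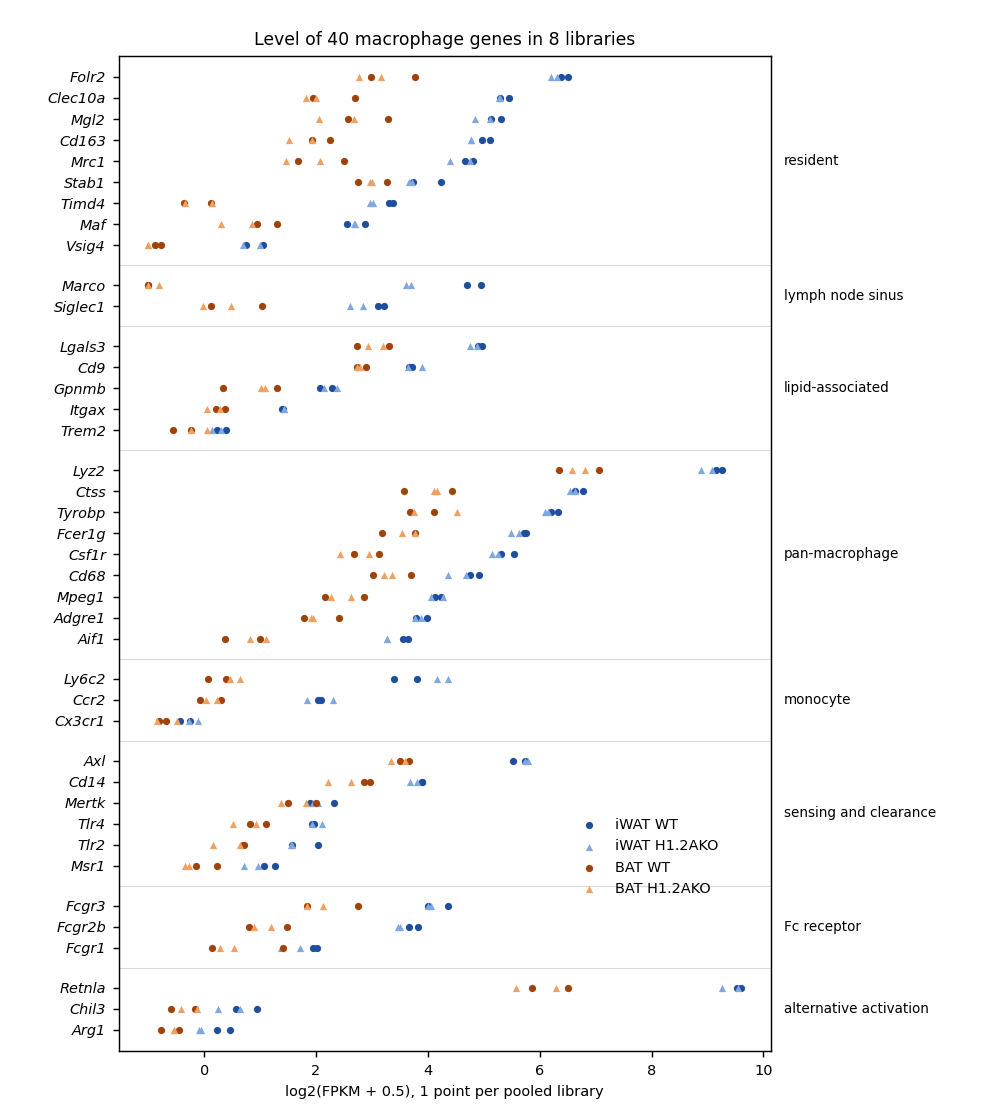
Levels of the 40 macrophage genes in the 8 libraries, with log2(FPKM + 0.5) on the x axis and genes on the y axis grouped by class. Each point is 1 pooled library, with blue for iWAT, orange for BAT, circles for WT and triangles for H1.2AKO. The blue points lie to the right of the orange points for most genes, with Marco furthest apart and Mertk mixed.

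Nearly all macrophage genes were lower in BAT than in iWAT. With the 2 genotypes weighted alike, 37 of the 38 members tested were called lower in BAT and 0 higher (31.7% of all genes; limma on log2(FPKM + 0.5), Benjamini-Hochberg adjusted p under 0.05), beside 34.2% of all 14108 genes tested that were called lower. The median log2 difference of the members was -1.96, against -0.02 for all genes tested. The median became -2.02 when Marco and Vsig4, which had at most 2 reads in any BAT library, were set at the floor of 3 reads. Arg1 and Cx3cr1 had a mean under 0.5 FPKM over the 8 libraries and were not tested. For 36 of 38 members all 4 BAT libraries were below all 4 iWAT libraries, as were 31.7% of all genes tested. The 2 exceptions were Mertk and Fcgr1. Mertk, a receptor for the uptake of apoptotic cells, was the one member not called (-0.37, SE 0.167, adjusted p = 0.0912), with 3.20, 4.49, 3.36 and 3.61 FPKM in iWAT and 2.34, 3.51, 3.02 and 2.11 in BAT (here and below the 2 WT libraries come first, then the 2 H1.2AKO libraries). It was called lower under 2 of 17 alternative settings.

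The tissue difference was not of 1 size. The class medians ran from -3.87 for the 2 lymph node sinus genes through -2.75 for 2 monocyte genes, -2.72 for the 9 resident genes, -2.18 for the 9 genes common to macrophages, -2.17 for 2 genes of alternative activation and -1.96 for the 3 Fc receptors to -1.19 for the 5 lipid-associated genes and -1.14 for the 6 receptors for sensing and clearance. These medians are descriptions of short lists, and no class was tested against another. That of the sinus genes lies between Marco (-5.19) and Siglec1 (-2.54), and the added 0.5 FPKM shrinks the differences of scarce genes. Lymph node markers moved with the tissue. Of the genes of lymph node stroma, 4 of 4 tested were called lower in BAT (median -2.64), beside 34.2% of all genes tested. So were 7 of 7 B cell genes (median -4.56) and 7 of 7 T cell genes (median -3.75). Glycam1, a product of lymph node venules, was at 48.1, 37.6, 27.7 and 27.0 FPKM in iWAT and listed at 0 in all 4 BAT libraries. The summed FPKM of the B cell list was 255.7 to 338.2 in iWAT and 1.42 to 3.74 in BAT, that of the lymph node stroma list 53.6 to 83.6 and 2.48 to 4.88, and Pax5 was at 0 in all 4 BAT libraries. The part of lymph node cells in the tissue difference of the macrophage genes was not tested.

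Marco, a scavenger receptor of sinus and marginal zone macrophages (mm10, chr1:120474538-120505024, minus strand), showed the largest difference of the members tested. It was at 30.6 and 25.4 FPKM in iWAT WT and at 11.7 and 12.6 in iWAT H1.2AKO, whereas both BAT WT libraries were at 0 and those of BAT H1.2AKO at 0.0716 and 0. In reads this was 3240 over the 4 iWAT libraries and 2 over the 4 BAT libraries. The WT iWAT mean was at least 265-fold above the floor of 3 reads per BAT library. Among H1.2AKO libraries the ratio of iWAT to BAT was 339.1 with a 95% interval of 93.6 to 2804 (exact, counting error only). The fitted difference was -5.19 (SE 0.0955, adjusted p = 7.99e-07), which ranked 10 among 14108 genes and ran from -9.45 to -4.26 with the settings because it depends on the pseudocount.

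Siglec1, the sialic acid receptor CD169 of the same sinus macrophages (mm10, chr2:131069220-131086765, minus strand), was detected in all 4 BAT libraries. It was at 8.11, 8.83, 5.60 and 6.66 FPKM in iWAT and at 0.588, 1.55, 0.482 and 0.898 in BAT. The groups did not overlap, and the difference was -2.54 (SE 0.221, adjusted p = 8.27e-05). Its ratio of tissue means was 8.29, beside 8.95 and 9.19 for the resident genes Cd163 and Folr2.

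Resident macrophage genes were lower in BAT without exception. Of the 9, 9 were called (34.2% of all genes tested) and 9 had groups that did not overlap (31.7%). Timd4, which encodes the phosphatidylserine receptor TIM-4 of long-lived resident macrophages, was at 9.40, 9.89, 7.30 and 7.63 FPKM in iWAT and at 0.281, 0.590, 0.285 and 0.596 in BAT (-3.28, SE 0.151, adjusted p = 6.75e-06). Cd163, the receptor for haemoglobin and haptoglobin, was at 30.9, 34.1, 26.9 and 26.8 FPKM in iWAT and at 3.32, 4.28, 2.38 and 3.30 in BAT, a ratio of tissue means of 8.95. The log2 difference had an SE of 0.116 and was called (adjusted p = 4.17e-06). Folr2, the folate receptor beta, was the highest of this class, with 83.4, 90.6, 72.9 and 78.6 FPKM in iWAT and 7.41, 13.2, 6.32 and 8.47 in BAT (-3.18, SE 0.181).

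The lectin receptors behaved alike in direction. Mrc1, the mannose receptor, was at 24.8, 27.4, 20.6 and 26.5 FPKM in iWAT and at 2.70, 5.18, 2.25 and 3.73 in BAT (-2.72). Clec10a was at 38.7, 43.3, 38.1 and 38.7 FPKM in iWAT and at 3.37, 5.99, 3.02 and 3.51 in BAT (-3.21). Mgl2 was at 34.6, 39.3, 28.2 and 34.0 FPKM in iWAT and at 5.47, 9.22, 3.65 and 5.90 in BAT (-2.45). Clec10a and Mgl2 are neighbouring, closely related galactose-type lectin genes. They share 8.49% of the 50-base words of Clec10a, so reads from these stretches could have been counted for either.

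The other 3 resident genes were at lower levels or showed smaller differences. Vsig4, the complement receptor CRIg, was at 1.58, 1.19, 1.49 and 1.12 FPKM in iWAT and at 0.0457, 0.0864, 0 and 0 in BAT, where it had 3 reads in all. Maf, a transcription factor of resident macrophages, was at 5.39, 6.80, 5.92 and 6.00 FPKM in iWAT and at 1.42, 1.96, 0.736 and 1.32 in BAT (-1.85). Stab1, the scavenger receptor stabilin-1, which sinusoidal and lymphatic endothelium also makes, had the smallest tissue difference of the class (-0.84, SE 0.149, adjusted p = 0.00239), at 12.8, 18.4, 12.6 and 12.1 FPKM in iWAT and 6.26, 9.11, 7.29 and 7.47 in BAT. The gene Nt5dc2 on the opposite strand overlaps Stab1 and was at 2.92 FPKM on average, and without strand their reads cannot be told apart.

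Lipid-associated genes were also lower in BAT, 5 of 5 called, beside 34.2% of all genes tested. Their differences were smaller than those of most other members on this scale. The added 0.5 FPKM shrinks the differences of the scarcer ones. As ratios of tissue means, iWAT over BAT, they ran from 1.99 (Trem2) to 3.69 (Lgals3). Those of the 9 common genes ran from 2.62 (Cd68) to 7.98 (Aif1). Lgals3, which encodes galectin-3, was at 30.9, 29.4, 26.4 and 28.8 FPKM in iWAT and at 6.13, 9.39, 7.08 and 8.70 in BAT (-1.84, SE 0.137, adjusted p = 4.23e-05). Cd9, a tetraspanin that adipocyte progenitors and other cells also carry, was at 12.6, 12.2, 14.4 and 12.1 FPKM in iWAT and at 6.13, 6.90, 6.17 and 6.37 in BAT (-0.95, SE 0.0773). Gpnmb, a transmembrane glycoprotein of lipid-laden macrophages, was at 3.69, 4.37, 4.70 and 3.91 FPKM in iWAT and at 0.767, 1.96, 1.52 and 1.63 in BAT (-1.28, SE 0.209).

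Itgax and Trem2 were scarce in both tissues. Itgax, the integrin CD11c of macrophages and dendritic cells, was at 2.16, 2.13, 2.20 and 2.21 FPKM in iWAT and at 0.653, 0.793, 0.715 and 0.540 in BAT (-1.19, SE 0.0985). Trem2, the lipid receptor that defines the lipid-associated state, was at 0.666, 0.808, 0.606 and 0.733 FPKM in iWAT and at 0.178, 0.350, 0.348 and 0.538 in BAT (-0.51, SE 0.138, adjusted p = 0.0156). It was called in WT (-0.70, adjusted p = 0.0219) and not in H1.2AKO (-0.32, adjusted p = 0.213), and the difference between these 2 values did not pass the test (0.39, adjusted p = 0.908).

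**Figure D2:**
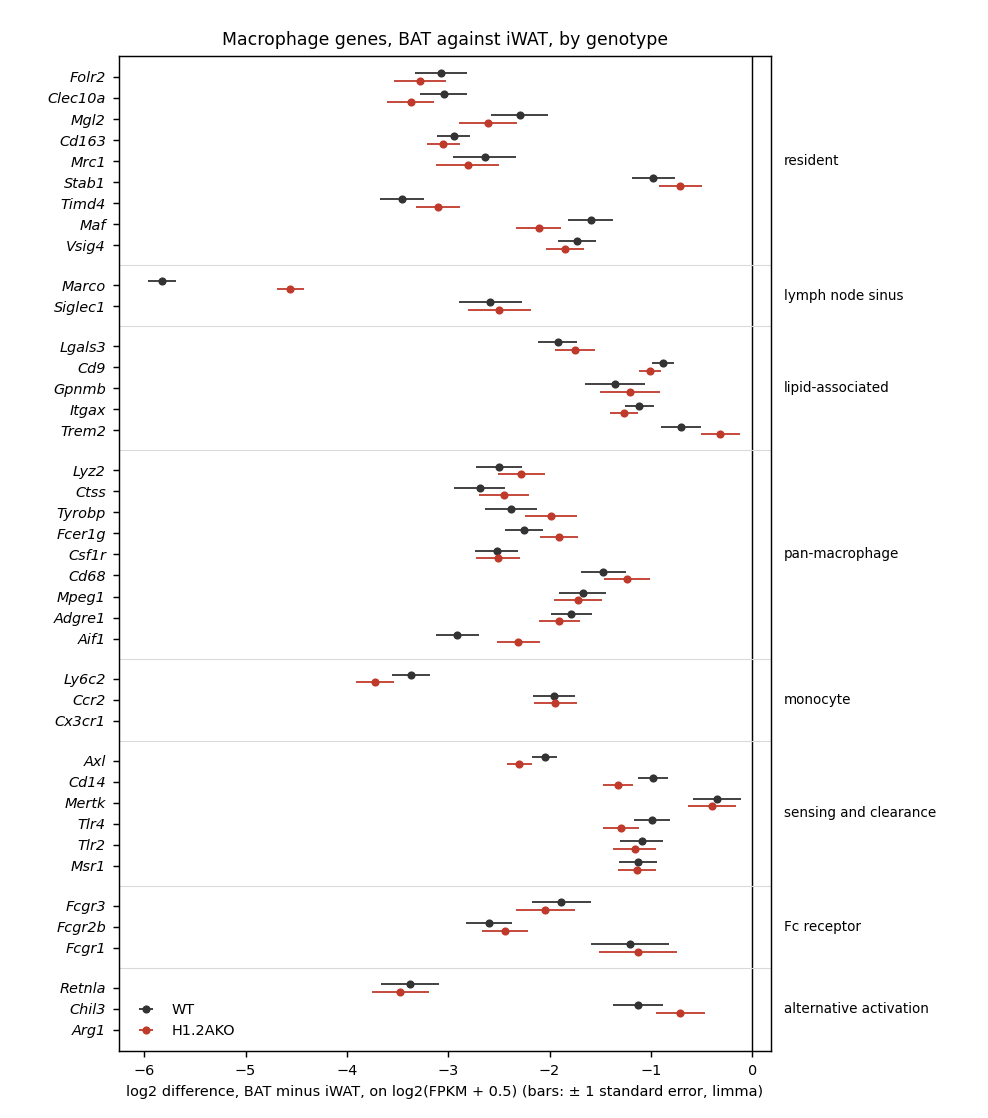
Tissue difference of each tested member, BAT minus iWAT on the scale log2(FPKM + 0.5), for WT (black) and H1.2AKO (red), with bars for ± 1 standard error from limma and genes grouped by class. All 38 tested members are below 0 in both genotypes, and the 5 lipid-associated genes lie nearer to 0 than most resident genes.

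Relative to the 9 genes common to macrophages (Adgre1, Csf1r, Cd68, Lyz2, Mpeg1, Aif1, Tyrobp, Fcer1g and Ctss), the classes took different places in the 2 tissues. The mean log2 level of the lipid-associated genes minus that of the common genes was -3.07 to -2.83 in iWAT and -2.08 to -1.88 in BAT. All 4 BAT libraries were thus nearer to the common genes than all 4 iWAT libraries. Fc receptor and monocyte values overlapped between the tissues. Sensing and clearance (-2.80 to -2.67 in iWAT, -1.95 to -1.44 in BAT) and alternative activation (-2.21 to -1.92, -1.75 to -1.37) moved as the lipid-associated genes did. The mean of the 2 sinus genes moved the other way, from -2.25 to -1.45 in iWAT to -3.69 to -3.42 in BAT. It joins Marco, with a tissue difference of -5.19, and Siglec1, with -2.54. The value of Siglec1 was near the median of the common genes (-2.18), so this shift was mainly that of Marco. The resident genes were at -1.37 to -1.32 in iWAT and at -1.94 to -1.47 in BAT. In BAT the 2 WT libraries (-1.47 and -1.56) were above the 2 H1.2AKO libraries (-1.94 and -1.78) in this measure. This was not particular to the resident genes. WT was also above H1.2AKO in BAT for sensing and clearance (-1.44 and -1.83 against -1.94 and -1.95). The Fc receptors (-2.05 and -1.73 against -2.21 and -2.14) and the sinus genes (-3.42 and -3.59 against -3.64 and -3.69) did likewise. In the lipid-associated, monocyte and alternative activation classes the genotypes overlapped in BAT. These are differences between class means, given with no test, and the added 0.5 FPKM draws scarce genes toward each other.

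**Figure D3:**
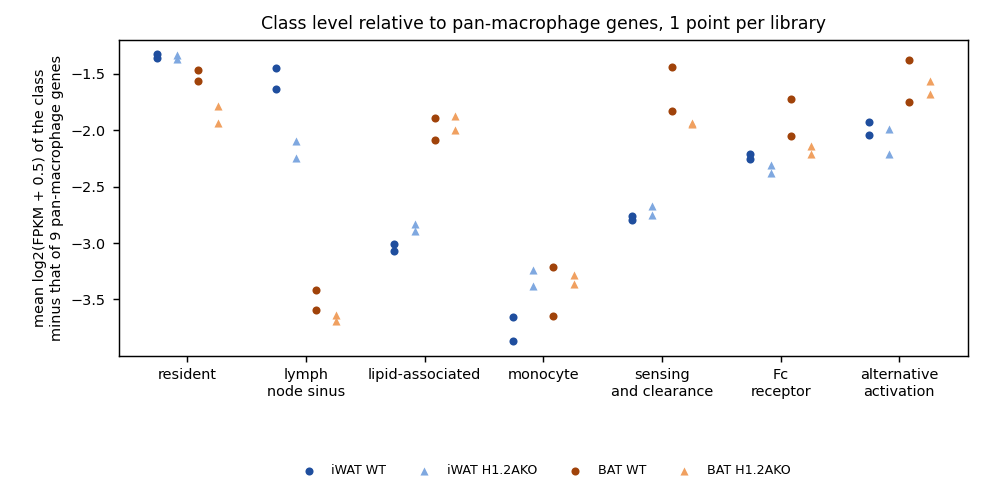
Mean log2(FPKM + 0.5) of each of 7 classes minus that of the 9 genes common to macrophages, with 1 point per pooled library and classes on the x axis. Lipid-associated genes sit at -3.07 to -2.83 in iWAT and -2.08 to -1.88 in BAT. The sensing and clearance and the alternative activation classes also sit higher in BAT, whereas the lymph node sinus class sits lower in BAT than in iWAT. That class is the mean of 2 genes, of which Marco differs far more between tissues than Siglec1.

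The genes common to macrophages were called lower in BAT in 9 of 9 cases, beside 34.2% of all genes tested. Their log2 differences ran from -2.61 for Aif1, which encodes the actin-bundling protein IBA1, to -1.35 for Cd68, a lysosomal glycoprotein. Aif1 was at 12.0, 11.3, 9.14 and 9.15 FPKM in iWAT and at 0.796, 1.51, 1.26 and 1.65 in BAT. Csf1r, the receptor for the survival factors CSF1 and IL-34, was at 39.5 FPKM on average in iWAT and 6.58 in BAT (-2.52, SE 0.152), and Adgre1, which encodes F4/80, at 14.0 and 3.60 (-1.84, SE 0.142). Hmgxb3 overlaps Csf1r on the opposite strand at 5.65 FPKM on average. Lyz2 shares 15.4% of its 50-base words with Lyz1, which was at 25.4 to 48.8 FPKM in iWAT and 2.31 to 6.09 in BAT, so reads from these stretches could have been counted for either.

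Of the monocyte genes, Ly6c2, a surface antigen of classical monocytes, had the second smallest p among the members. It was at 13.5, 9.99, 17.5 and 20.2 FPKM in iWAT and at 0.544, 0.819, 1.06 and 0.871 in BAT (-3.54, SE 0.132, adjusted p = 3.65e-06). It shares 13.9% of its 50-base words with Ly6c1, an endothelial and lymphocyte gene that was at 101.0 to 111.1 FPKM in iWAT and 63.8 to 70.1 in BAT. Ccr2, the receptor that draws monocytes out of the bone marrow, was at 3.72 and 0.592 FPKM on average (-1.95). Cx3cr1 stayed at or under 0.430 FPKM in all 8 libraries and overlaps 5 other genes.

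Among receptors for sensing and clearance, Axl, a receptor for apoptotic cells that fibroblasts and endothelium also carry, was the most abundant. It was at 53.1, 45.3, 55.2 and 52.7 FPKM in iWAT and at 10.8, 12.2, 9.63 and 11.6 in BAT (-2.17, SE 0.0871, adjusted p = 4.45e-06). Cd14, the co-receptor for lipopolysaccharide, and the receptors Tlr2, Tlr4 and Msr1 differed by -1.15 to -1.13. The Fc receptors for immunoglobulin G were lower by -2.52 (Fcgr2b, the inhibitory receptor, which B cells also carry), -1.96 (Fcgr3) and -1.17 (Fcgr1). Fcgr3 and Fcgr2b share 9.58% of the 50-base words of Fcgr3. Retnla fell by 3.43 on the log2 scale (SE 0.201, adjusted p = 1.60e-05), with 733.4, 775.3, 614.2 and 749.0 FPKM in iWAT and 57.3, 90.2, 47.5 and 77.5 in BAT. Chil3, which encodes Ym1, was at 1.04 FPKM on average in iWAT and 0.308 in BAT (-0.92), and shares 16.9% of its 50-base words with Chil4.

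Macrophage genes outside the 40 members went the same way in most cases. All 11 other resident genes (C1qa, C1qb, C1qc, Ms4a7, Pf4, Lyve1, Cbr2, F13a1, Cd209f, Cd209g and Cd5l) were called lower in BAT, with a median of -2.42. Of 6 macrophage transcription factors and CSF1 receptor ligands, all 6 were called lower. The share of all genes tested that were called lower was 34.2%. Irf8, a transcription factor of the mononuclear phagocyte and B cell lineages, was at 12.4, 13.3, 12.7 and 10.9 FPKM in iWAT and at 1.36, 1.26, 1.05 and 1.13 in BAT (-2.91, SE 0.0798, adjusted p = 1.65e-06). Spi1, which encodes PU.1, was at 13.6, 14.3, 14.1 and 12.6 FPKM in iWAT and at 2.01, 2.43, 1.92 and 2.43 in BAT (-2.40, SE 0.0949, adjusted p = 4.45e-06). Other genes used to mark the lipid-associated state did not move as 1 group. Of 7 tested, Spp1, Fabp5 and Cd63 were called lower in BAT, and Lipa, which encodes lysosomal acid lipase (1.16), and Plin2, a lipid droplet coat protein (1.09), were called higher. Ctsd and Ctsb, the rest of the 7, were not called. Adipocytes also make Lipa and Plin2, and bulk samples do not show which cells made the RNA of any of the 7.

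Each genotype gave nearly the same tissue calls. In WT, 37 of 38 tested members were called lower in BAT (median -1.94), beside 28.2% of all genes, and in H1.2AKO 36 of 38 (median -1.97), beside 27.7%. Mertk was not called in either, and Trem2 only in WT. For Marco the tissue difference was -5.83 in WT and -4.56 in H1.2AKO. The test of this difference in differences gave 1.27 (SE 0.191, adjusted p = 0.351), which ranked 16 among 14945 genes. With Marco at 0 to 2 reads in each BAT library, this value rests on the iWAT libraries. None of the 39 members tested passed the interaction test at an adjusted p under 0.05, as was so for all genes tested (0% called), and Marco (higher) was the one member with an unadjusted p under 0.05, beside 2.78% of all genes higher and 2.84% lower. After Marco, the smallest p values of the interaction belonged to Aif1 (0.60), Arg1 (0.49), Cd14 (-0.35) and Maf (-0.52).

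In iWAT, 0 of 39 members tested differed between H1.2AKO and WT by limma at an adjusted p under 0.05, as was so for 0 of all 14349 genes (0%). At an unadjusted p under 0.05 there were 2, Marco lower and Ly6c2 higher, beside 3.37% of all genes lower and 2.59% higher. By limma-voom on recovered reads 0 members were called as well. Most members were slightly lower in H1.2AKO. The log2 difference was below 0 for 32 of 39 members, against 50.8% of all genes, with a median of -0.15, and both H1.2AKO libraries were below both WT libraries for 19 of 39 members, beside 20.5% of all genes. They were above both for 2 members, Ly6c2 and Itgax, beside 16.7%. Members come from the same cells and are not replicates. Genes of other cell types moved in this comparison as well. All 5 adipocyte genes were below 0 (median -0.28), with sums of 4669 and 4210 FPKM in WT against 3617 and 3530 in H1.2AKO, and 7 of 8 skeletal muscle genes were above 0 (median 1.75), with sums of 126.8 and 3281 FPKM in WT against 2214 and 2119. None of them was called, and their part in the members' values was not tested. The count of members below 0 was 27 without WT replicate 2, which had the highest level of the 4 iWAT libraries for 25 of 40 members.

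Marco had the smallest p of all members in iWAT, and ranked 3 among 14349 genes. The 2 WT libraries (30.6 and 25.4 FPKM; 1179 and 1052 reads) lay above the 2 H1.2AKO libraries (11.7 and 12.6 FPKM; 516 and 493 reads), a ratio of 0.432. The log2 difference was -1.17 (SE 0.135, adjusted p = 0.231). Over 18 alternative settings it ran from -1.30 to -1.04, with adjusted p from 0.0514 (limma-voom) to 0.727 (pseudocount 0.1), and was called under 0 of them. Siglec1 went the same way with a smaller difference, 8.11 and 8.83 FPKM in WT against 5.60 and 6.66 in H1.2AKO, a ratio of 0.723 (-0.44, SE 0.313, adjusted p = 0.969).

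Genes of lymph node stroma and of B cells moved in the same direction as Marco in iWAT, and T cell genes did not. The summed level of 5 lymph node stroma genes was 83.6 and 80.8 FPKM in WT against 58.5 and 53.6 in H1.2AKO, with 4 of 4 tested below 0 (median -0.49), and that of 7 B cell genes was 325.8 and 338.2 against 282.0 and 255.7, with 7 of 7 below 0 (median -0.20). T cell genes went the other way, at 114.9 and 127.8 FPKM in WT against 157.1 and 140.8 in H1.2AKO, with 6 of 7 above 0. None of these genes was called. Neutrophil genes were at 35.4 and 42.9 FPKM in WT and 8.58 and 31.4 in H1.2AKO in sum. The part of the amount of lymph node in the level of Marco was not tested.

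**Figure D4:**
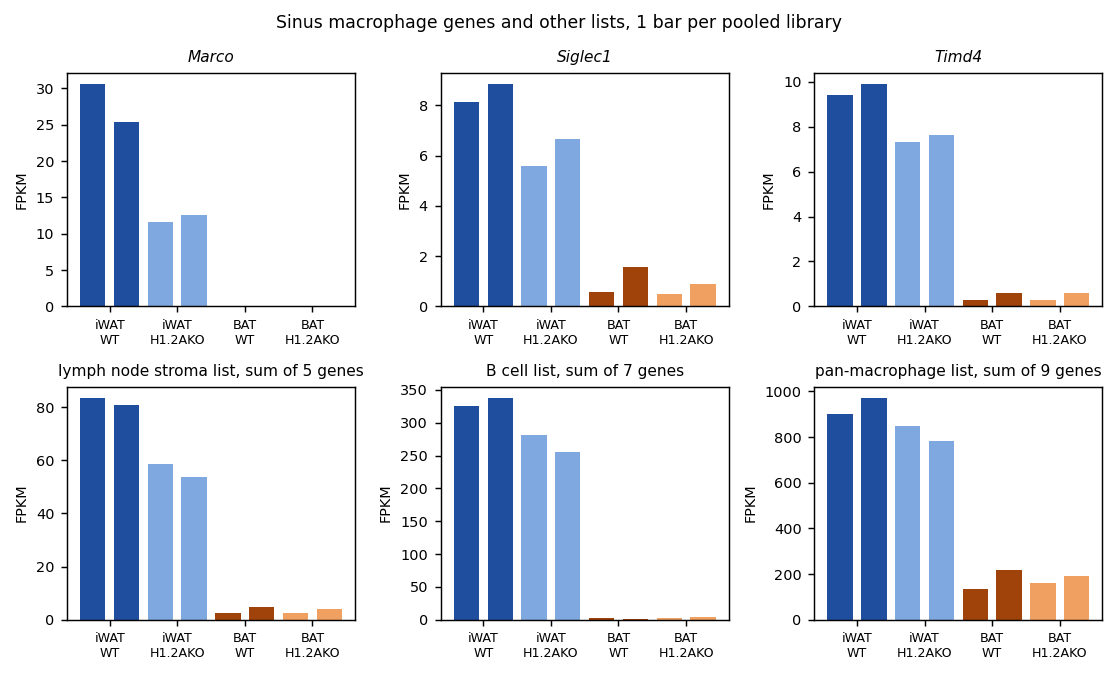
FPKM of Marco, Siglec1 and Timd4 (upper row) and summed FPKM of the lymph node stroma, B cell and common macrophage lists (lower row), with 1 bar per pooled library and the y axis from 0. Marco falls from 30.6 and 25.4 in iWAT WT to 11.7 and 12.6 in iWAT H1.2AKO and is close to 0 in BAT. The lymph node stroma list is also lower in iWAT H1.2AKO. The T cell list, which was higher in iWAT H1.2AKO than in iWAT WT, is not drawn.

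By class, all 9 resident genes were below 0 in the genotype comparison of iWAT (median -0.20), from -0.35 for Timd4 to -0.02 for Maf, with standard errors of 0.164 to 0.312. Cd163 was at 30.9 and 34.1 FPKM in WT and 26.9 and 26.8 in H1.2AKO (-0.27, SE 0.164, adjusted p = 0.931). The 9 genes common to macrophages were also all below 0 (median -0.17). The 5 lipid-associated genes lay on both sides of 0 (3 above, 2 below, median 0.03), from -0.12 for Lgals3 to 0.08 for Cd9 and Gpnmb. Whether these medians differ was not tested.

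Ly6c2 was higher in both H1.2AKO iWAT libraries, 17.5 and 20.2 FPKM against 13.5 and 9.99 in WT (0.67, SE 0.186, adjusted p = 0.628). The scavenger receptor Msr1 was at 1.61 and 1.91 FPKM in WT and 1.13 and 1.45 in H1.2AKO (-0.34, adjusted p = 0.915). Arg1, which encodes arginase 1, was at 0.676 and 0.882 FPKM in WT and 0.442 and 0.465 in H1.2AKO (-0.42, adjusted p = 0.838). None of these differences passed the test.

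In BAT, 0 of 32 members tested differed between H1.2AKO and WT by limma at an adjusted p under 0.05 (0% of all 13190 genes). The other 8 members, among them Marco, Timd4, Vsig4 and Trem2, had a mean under 0.5 FPKM there. At an unadjusted p under 0.05 there were 2, Cd14 and Maf, both lower, beside 6.30% of all genes lower and 6.24% higher. By limma-voom 0 members were called, and 22 of all genes. The log2 difference was below 0 for 24 of 32 members, against 47.5% of all genes, with a median of -0.14. That count rested on 1 library. BAT WT replicate 2 held the highest of the 4 BAT values for 30 of 40 members, and without it 10 of 32 members were below 0 and the median was 0.13. Without WT replicate 1, 30 were below 0 and the median was -0.41.

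Both H1.2AKO libraries were below both WT libraries in BAT for 4 of 32 members, beside 18.9% of all genes. They were above both for 1, Ly6c2, beside 22.4%. Cd14 was at 6.77 and 7.30 FPKM in WT and 4.12 and 5.68 in H1.2AKO (-0.49, SE 0.144, adjusted p = 0.276). Maf was at 1.42 and 1.96 FPKM in WT and 0.736 and 1.32 in H1.2AKO (-0.54, SE 0.222, adjusted p = 0.396). Cd163 was at 3.32 and 4.28 against 2.38 and 3.30 FPKM (-0.37, adjusted p = 0.423). Clec10a (3.37 and 5.99 against 3.02 and 3.51) and Mgl2 (5.47 and 9.22 against 3.65 and 5.90) had groups that overlapped, with differences of -0.42 and -0.56.

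The 7 resident genes tested in BAT were all below 0 (median -0.41), beside 47.5% of all genes. Their groups did not overlap for 2 of the 7, Cd163 and Maf. Stab1 was at 6.26 FPKM in WT replicate 1, below both H1.2AKO values (7.29 and 7.47). The 9 common genes were on both sides of 0 (4 above, 5 below, median -0.00), as were the 4 lipid-associated genes tested (median -0.00). Whether these medians differ was not tested, and they include WT replicate 2, the highest library for most members. All 8 skeletal muscle genes were below 0 (median -2.95), and 0 were called. For all 8, both H1.2AKO libraries were below both WT libraries, beside 18.9% of all genes. Their sums were 2252 and 2550 FPKM in WT against 71.5 and 1175 in H1.2AKO, so the H1.2AKO libraries also differed from each other. The 5 adipocyte genes had a median difference of -0.13, with 3 of 5 below 0 and sums of 4091 and 4135 FPKM in WT against 3867 and 3595 in H1.2AKO. The part of muscle and adipocyte RNA in the BAT values was not tested.

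**Figure D5:**
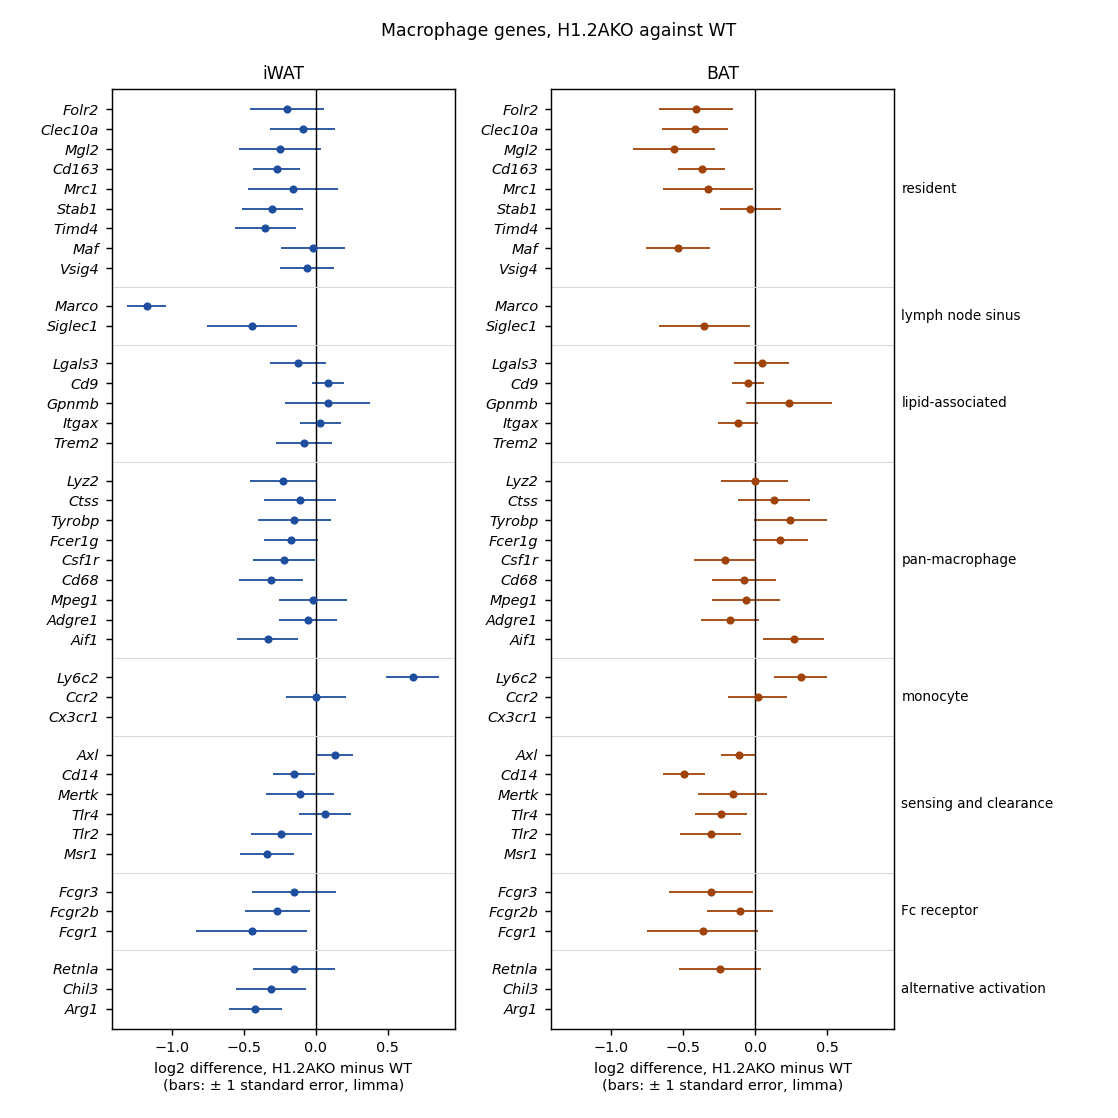
Genotype difference of each tested member, H1.2AKO minus WT on the scale log2(FPKM + 0.5), in iWAT (left) and BAT (right), with bars for ± 1 standard error from limma and genes grouped by class. Marco in iWAT (-1.17) stands furthest from 0, Ly6c2 in iWAT (0.67) furthest above it, and genes without a point were not tested in that tissue.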

How the data were processed

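RNA-seq was made from poly-T-selected mRNA of pooled iWAT or BAT. The deposited FPKM values were made by the authors, with alignment by HISAT2 2.0.5 to mm10 (GRCm38.p6) in the submitters' processing notes. The sources used here name neither the counter nor the library strand. FPKM times gene length gave whole reads for 100% of values (within 0.01). The authors' denominator was 1.23 to 1.33 times the listed reads in iWAT and 0.873 to 0.955 times in BAT, and mitochondrially encoded genes held 11.1% to 13.5% and 31.4% to 34.3% of FPKM, which affects levels between tissues.

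log2(FPKM + 0.5) was fitted with limma 3.58.1 (R 4.3.3), 1 mean per group over 8 libraries, trended moderation (4 residual and 2.57 prior degrees of freedom), for genes with a mean of at least 0.5 FPKM, with p values two-sided and Benjamini-Hochberg adjusted over all tested genes. With 2 pools against 2 an exact permutation test cannot go below 0.333. The code was tested on simulated data. Pools are the replicates, so p values measure the spread between pools. Members, lists and motifs were chosen with earlier results of these data known. Values per library are given for resident, sinus and lipid-associated members, for the 5 members with the smallest p in each comparison, and for 2 genes of the other lists; a few further genes were chosen after their values were seen. No pair of replicates was a duplicate (chi-square of 10.4 to 44.1 per gene).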

Additional observations from a re-analysis of the deposited data

How the results depend on the processing

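Every count of called members stayed within 1.5 times its value as reported, under a pseudocount of 0.1 or 1, no filter or a mean of at least 1 FPKM, median-ratio scaling, FPKM rescaled without mitochondrially encoded genes, robust moderation, limma-voom on recovered reads, and with each of the 8 libraries left out. It ran from 33 to 39 for BAT against iWAT over both genotypes, 33 to 37 in WT and 32 to 36 in H1.2AKO, and was 0 throughout for the genotype comparisons and the interaction. Leaving out 1 library gave 36 to 38, 35 to 37 and 32 to 36. No direction turned for a called result. The median tissue difference of the members ran from -2.20 to -1.81. Rescaling without mitochondrially encoded genes shifted the median of all genes in BAT against iWAT to -0.26 and that of the members to -2.19, and moved the split of all calls from 4479 higher and 4821 lower to 2805 and 6649. The genotype median of the members lay between -0.23 and -0.11 in iWAT, and between -0.41 and 0.13 in BAT. The counts of members below 0 under each setting were added after seeing the data.

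The labels do not say that a replicate number pairs libraries, and same-numbered libraries deviated together only weakly (correlations of -0.14 to 0.28 over 14108 genes, 6 pairs of groups). With the replicate block the counts were 37, 37, 36, 0, 0 and 0, as without it. With 2 pools a group, differences between genotypes of the size seen in most members could not be told from the spread. Hist1h1c passed the threshold in BAT by limma-voom (-6.01, adjusted p = 0.0361).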

Other observations

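Csf1, which encodes the growth factor of macrophages and was chosen with its values in view, had 10.0 and 9.42 FPKM in BAT of WT against 3.77 and 4.86 in H1.2AKO (-1.09, SE 0.136, adjusted p = 0.0942, rank 17 of 13190 genes), and did not pass the threshold. The receptor gene Csf1r was at 5.90 and 8.26 FPKM in BAT of WT against 4.89 and 7.26 in H1.2AKO (-0.21), with groups that overlapped. The interaction of tissue and genotype was -0.92 for Csf1 (adjusted p = 0.700).

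Cd5l, a secreted protein of resident macrophages likewise chosen with its values in view, had 2.33 and 2.63 FPKM in iWAT WT and 1.39 and 1.42 in iWAT H1.2AKO (-0.64, SE 0.161, adjusted p = 0.611), and had the smallest p of the 11 other resident genes there. It was at 0, 0.0315, 0.101 and 0 in BAT.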
